A study of Mus musculus with 96 samples.

Results

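The genes described here are 10 imprinted mouse genes, the neighbours Zim1, Peg3 and Usp29 on proximal chromosome 7 and 7 imprinted growth genes elsewhere, H19, Igf2, Cdkn1c, Mest, Dlk1, Plagl1 and Grb10. They were chosen by symbol, and all 10 were found among the 22632 gene symbols measured in sciatic nerve and among the 20940 measured in gastrocnemius muscle. All 10 passed the filter on low values in nerve and 9 passed it in muscle, where Usp29 was too low.

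RNA was sequenced from male C57BL/6J mice, housed singly, whose diets began at 12 weeks of age and whose tissues were taken at 26 weeks. A standard diet with 10% of its energy as fat was eaten throughout by the SD mice. The HFD mice ate a high-fat diet, made with lard, at 60%, and the KD mice a ketogenic diet, made with cocoa butter, at 90%. Mice of the other 4 regimens ate the high-fat diet until 18 weeks and then changed to the standard diet (DR), changed to the ketogenic diet (KDI), stayed on the high-fat diet with a running wheel (EX), or changed to the ketogenic diet with a running wheel (KDI_EX). Each regimen is represented by 7 libraries in each tissue, except that nerve has 6 for SD and 6 for HFD, and muscle has 8 for SD and 6 for KDI_EX. The labels give no altered genotype, and food was freely available.

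An imprinted gene is transcribed mainly from the copy inherited from a given parent, because DNA methylation laid down in the egg or sperm marks the parental copies differently. Many imprinted genes act on growth, placental supply, muscle and fat, and paternally expressed genes often promote growth while maternally expressed genes often restrain it. In the mouse Peg3 domain, Peg3 encodes a zinc finger protein that binds DNA and is expressed from the paternal copy, and Usp29, named after ubiquitin-specific proteases, is also expressed from the paternal copy and starts beside Peg3 in the opposite direction. Zim1, a further zinc finger gene downstream of Peg3, is expressed mainly from the maternal copy. The libraries report total RNA of each gene, so the parental copy it came from is not measured here.

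Zim1 carries the main pattern of the data, and Peg3 and Usp29 are its neighbours. The shared start region of Peg3 and Usp29 and the region upstream of Zim1 are therefore shown. Zim1 lies at chr7:6671269-6696450, Peg3 at chr7:6703892-6730431, both on the minus strand, and Usp29 at chr7:6730578-6967219 on the plus strand (GENCODE annotation of GRCm38). In RefSeq on GRCm38.p6 the starts of Peg3 and Usp29 are 164 bases apart, and the Zim1 start is 33987 bases from the Peg3 start. The sequences below are the 163 bases between the Peg3 and Usp29 starts (chr7:6730420-6730582) and the 250 bases before the Zim1 start (chr7:6696433-6696682), both read 5′ to 3′ on the minus strand from RefSeq, with CG dinucleotides, the sites that carry DNA methylation in mammals, in capitals.
Peg3 to Usp29: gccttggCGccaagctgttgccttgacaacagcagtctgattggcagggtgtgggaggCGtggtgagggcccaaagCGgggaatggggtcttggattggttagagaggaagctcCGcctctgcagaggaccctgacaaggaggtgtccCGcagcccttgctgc
Zim1 upstream: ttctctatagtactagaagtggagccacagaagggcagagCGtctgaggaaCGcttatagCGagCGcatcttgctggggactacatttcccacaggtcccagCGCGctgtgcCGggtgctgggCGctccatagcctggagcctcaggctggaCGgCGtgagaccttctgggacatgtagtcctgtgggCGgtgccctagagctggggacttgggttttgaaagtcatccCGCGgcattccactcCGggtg
The stretch between Peg3 and Usp29 holds 5 CG dinucleotides and the Zim1 stretch holds 14. Promoter windows, from 250 bases before to 50 after a start, were found for 8 of the 10 genes, in 14 windows. The Zim1, Peg3 and Usp29 windows held 20, 13 and 17 CG dinucleotides, against a median of 7 over 32851 promoter windows of the same build. Their counts lay at percentiles 73.5, 62.1 and 68.6 of all windows, and 43.5% of all windows held 10 or more. The letters GGGGCCCC, searched on both strands as the core recognised by PLAGL1, occurred once in the Peg3 window and once in the Usp29 window, which share 263 bases, and in 1.08% of all promoter windows. The letters GGCGCCAT, GCCAT (both for YY1) and CCGCGNGG (for CTCF) occurred in 0.846%, 40.5% and 6.26% of all windows and in none of the Zim1, Peg3 and Usp29 windows.

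All values are log2 values as deposited, in which a difference of 1 stands for a doubling on the deposited scale. The tissues were put on this scale separately, so levels are not set against each other between tissues. Nor are levels ranked between genes, since a correction for gene length is not stated. The depth behind the values is unknown. All 7 Schwann cell markers (gene means 12.65 to 18.78) were found in nerve and all 8 muscle fibre markers (16.02 to 19.93) in muscle, as the labels say. Nerve libraries EX 5 and KDI_EX 7 stood 4.27 and 4.29 median absolute deviations from the median library on the first principal component, past the limit of 4, and had the highest muscle fibre scores of all nerve libraries (4.53 and 4.52). No muscle library passed this limit. In whole tissue, more cells of a type and more RNA per cell cannot be told apart.

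In nerve, the 3 regimens with the ketogenic diet (KD, KDI and KDI_EX) had the highest Zim1 means. Its level ran from 7.49 through a median of 7.79 to 8.002 in SD, from 7.64 through 7.85 to 8.16 in HFD, from 7.27 through 7.89 to 8.16 in DR and from 7.56 through 8.12 to 8.39 in EX. It ran from 8.11 through 8.79 to 9.39 in KD, from 8.62 through 8.82 to 9.53 in KDI and from 7.80 through 8.66 to 10.04 in KDI_EX. Of the 21 ketogenic libraries, 17 lay above 8.39, the highest value of the 26 other libraries, and 20 lay above the median of those others. The remaining 4 were spread over KD and KDI_EX, and every KDI library lay above every other-diet library.

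The order of Zim1 means in nerve was SD (7.78 ± 0.18, SD, n = 6), DR (7.84 ± 0.28, n = 7), HFD (7.89 ± 0.24, n = 6), EX (8.09 ± 0.29, n = 7), KD (8.69 ± 0.46, n = 7), KDI_EX (8.88 ± 0.86, n = 7) and KDI (8.95 ± 0.38, n = 7). Neighbours within the first 4 and within the last 3 of this order differed by less than their standard deviations, and the step in the order lay between EX and KD. A moderated F-test over the 7 regimens (limma, Benjamini-Hochberg over 17226 genes) gave Zim1 an adjusted p of 0.00366 (0.151% of all genes, 26 of them, were called at an adjusted p under 0.05). Because the gene set was put together with earlier results of these libraries known, this and the following p-values say where a gene stood in the fit over all genes and are not independent evidence.

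The pairwise differences of Zim1 in nerve were close to a doubling. KDI exceeded HFD by 1.06 ± 0.24 (SE, 7 of 7 KDI libraries above the HFD mean), which is 2.09-fold on the deposited scale, and exceeded DR by 1.11 ± 0.23 (7 of 7). KD exceeded SD by 0.91 ± 0.24 (7 of 7) and HFD by 0.80 ± 0.24 (7 of 7). KDI_EX exceeded HFD by 0.99 ± 0.24 (6 of 7) and EX by 0.78 ± 0.23 (5 of 7). KDI and HFD, KDI and DR, and KD and SD did not overlap, which was so in the same direction for 0.145%, 0.0813% and 0.0174% of all genes.

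At an unadjusted p under 0.05, KD vs SD, KD vs HFD, KDI vs HFD, KDI vs DR, KDI_EX vs HFD and KDI_EX vs EX had 5.28%, 5.63%, 4.27%, 5.43%, 5.72% and 5.8% of all genes in nerve, and at the adjusted threshold 0.00581%, 0.0348%, 0.0232%, 0.00581%, 0.0697% and 0.0581%. None of these 6 differences passed the adjustment over all genes in limma, with adjusted p-values from 0.125 (KDI_EX vs HFD) to 0.822 (KD vs SD) and unadjusted p-values of 2.6e-05 to 0.0021. The KD, KDI and KDI_EX means lay within 0.26 of each other. Among the regimens without the ketogenic diet, DR minus HFD was -0.04, DR minus SD 0.06 and HFD minus SD 0.11, each below its standard error of 0.24 or 0.25. The libraries KDI_EX 6 and KDI_EX 7, with muscle fibre scores of 1.90 and 4.52, held the 2 highest Zim1 values (10.04 and 9.93). Of all nerve libraries, KDI_EX 6 also had the lowest Schwann cell score (-0.634) and the highest adipocyte (1.2), endothelial (0.478) and mural cell (0.815) scores. Without EX 5 and KDI_EX 7, the libraries that stood apart, KDI_EX minus HFD was 0.82 and KDI_EX minus EX 0.66. KDI minus HFD and KDI minus DR did not pass in that fit (limma, adjusted p = 0.0813 and 0.0809). Without KDI_EX 6 and KDI_EX 7, a choice made after seeing the data, KDI_EX minus HFD was 0.55 and KDI_EX minus EX 0.34. KDI minus HFD and KDI minus DR then passed the threshold (limma, adjusted p = 0.00892 and 0.00295), with differences of 1.06 and 1.105 as in the main fit.

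Peg3 in nerve had its highest means in KDI_EX and KDI, with smaller steps than Zim1, and the EX mean lay above that of KD. It ran from 11.22 through 11.54 to 11.79 in SD, from 11.33 through 11.61 to 12.02 in HFD, from 10.99 through 11.63 to 11.77 in DR and from 11.59 through 11.97 to 12.18 in EX. It ran from 11.51 through 11.83 to 12.44 in KD, from 11.87 through 12.00 to 12.75 in KDI and from 11.59 through 12.01 to 12.91 in KDI_EX. The ketogenic and other groups overlapped, with 8 of 21 ketogenic libraries above the highest other library (12.18, in EX) and 18 of 21 above the median of the others. KDI exceeded DR by 0.65 ± 0.17 (SE, 7 of 7, groups not overlapping) and HFD by 0.57 ± 0.18 (7 of 7), and KDI_EX exceeded HFD by 0.58 ± 0.18 (6 of 7). Without KDI_EX 6 and KDI_EX 7 the last difference was 0.297. KD exceeded SD by 0.37 ± 0.18 (6 of 7), while KD minus HFD was 0.26 and EX minus HFD 0.32, neither with an unadjusted p under 0.05. No Peg3 difference passed the adjustment (smallest adjusted p = 0.433 in limma), and its F-test gave an adjusted p of 0.101.

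Usp29 was close to the lower limit of measurement in nerve. Only 6 of 47 libraries reached the filter value of log2 of 10, and all 6 were ketogenic, so that Usp29 was tested only through the groups in which it was high and its values are a description. Its means were 2.83 in SD, 2.76 in HFD, 2.84 in DR, 2.93 in EX, 3.05 in KD, 3.25 in KDI and 3.24 in KDI_EX. All 6 HFD libraries lay between 2.71 and 2.79, below the 7 KDI libraries (2.83 to 3.91). KDI exceeded HFD by 0.49 and DR by 0.40, KDI_EX exceeded HFD by 0.48 and EX by 0.31, and KD exceeded HFD by 0.30. Without KDI_EX 6 and KDI_EX 7, KDI_EX minus HFD was 0.25 and KDI_EX minus EX 0.08. On this low range 11 of 21 ketogenic libraries lay above 3.11, the highest of the others. In the annotation, 2582 exonic bases of Usp29 overlap the antisense gene Zim3, and the library kit is not stated to mark strand, so reads of the 2 genes cannot be told apart.

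**Figure D1:**
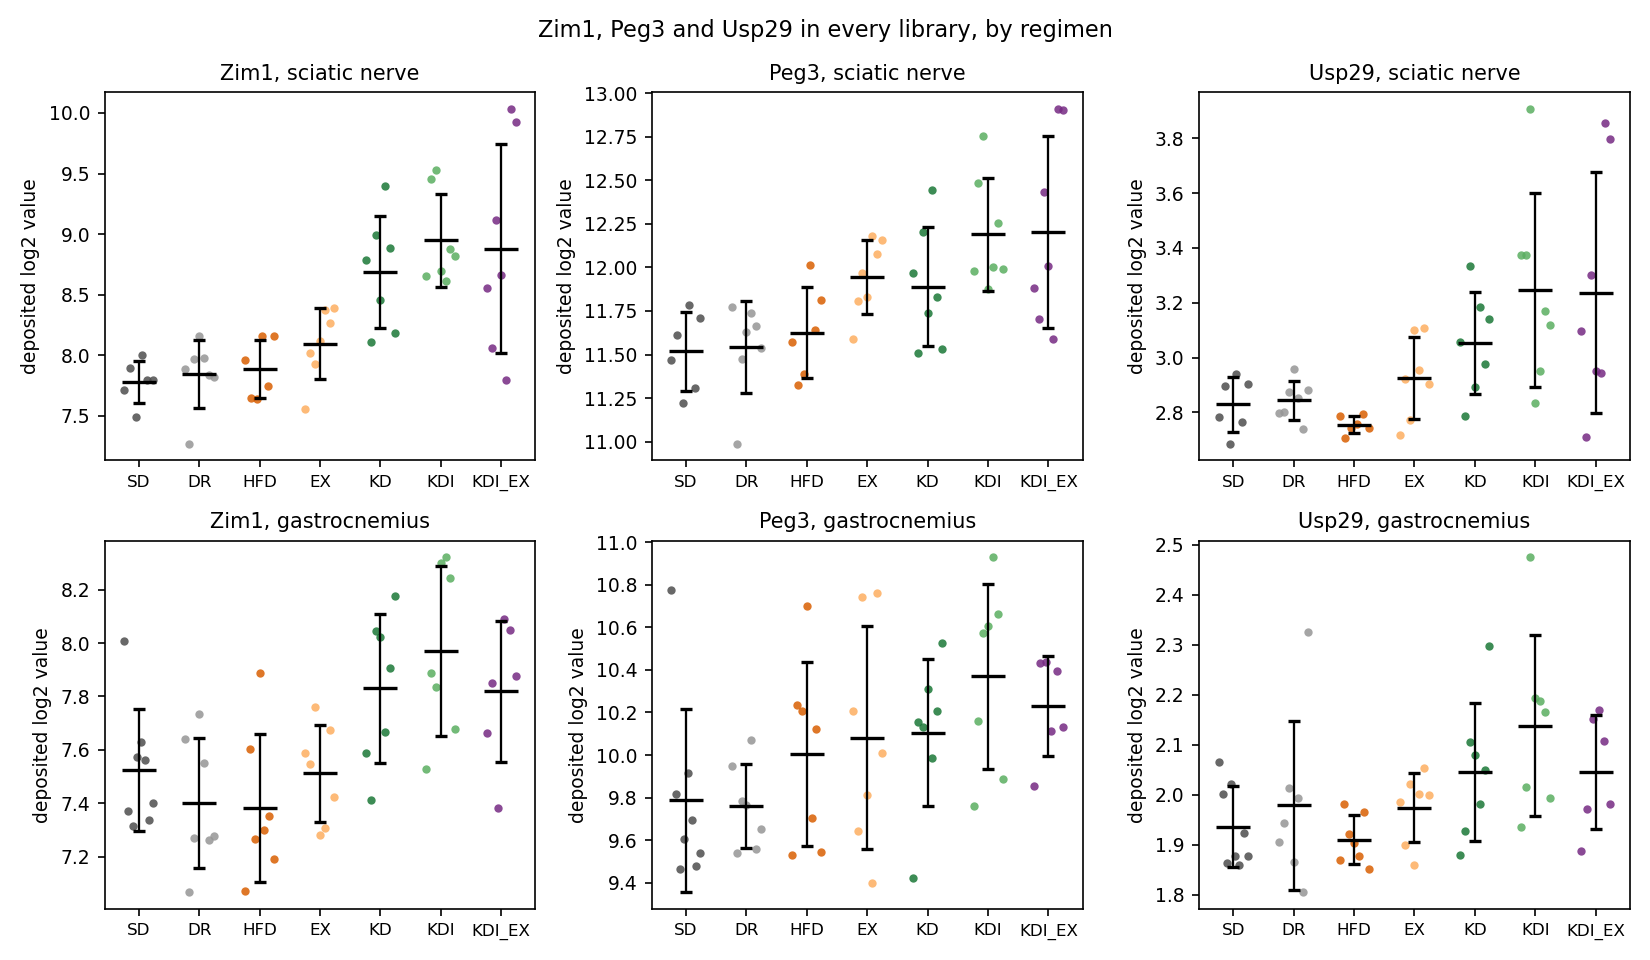
Deposited log2 values (vertical axes) of Zim1, Peg3 and Usp29 in every library, by regimen (horizontal axes), in sciatic nerve (top) and gastrocnemius (bottom); points are libraries, and black bars are group means with standard deviations. In nerve, 17 of the 21 KD, KDI and KDI_EX libraries lie above the highest Zim1 value of the other regimens (8.39), and in muscle 8 of 20 lie above 8.01.

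In muscle the same 3 regimens had the highest Zim1 means, by smaller amounts. Zim1 ran from 7.31 through 7.48 to 8.01 in SD, from 7.07 through 7.30 to 7.89 in HFD, from 7.07 through 7.28 to 7.73 in DR and from 7.28 through 7.55 to 7.76 in EX. It ran from 7.41 through 7.91 to 8.18 in KD, from 7.53 through 7.89 to 8.32 in KDI and from 7.38 through 7.86 to 8.09 in KDI_EX. The groups overlapped in every comparison, with 8 of 20 ketogenic libraries above the highest of the 29 others (8.01, SD 1) and 19 of 20 above their median.

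KDI exceeded HFD by 0.59 ± 0.13 (SE, 7 of 7) and DR by 0.57 ± 0.13 (7 of 7) in Zim1 of muscle. KD exceeded HFD by 0.45 ± 0.13 (7 of 7) and SD by 0.31 ± 0.13 (6 of 7), and KDI_EX exceeded HFD by 0.44 ± 0.14 (6 of 6) and EX by 0.31 ± 0.14 (5 of 6). In the same order of comparisons, 2.62%, 7.45%, 5.89%, 10.2%, 6.67% and 6.96% of all genes in muscle had an unadjusted p under 0.05, and 0.0318%, 0.0508%, 0.318%, 0.197%, 0.108% and 0.0635% were called. These 6 differences had limma adjusted p-values from 0.103 (KDI vs DR) to 0.658 (KDI_EX vs EX), and none passed. The F-test over the 7 regimens gave Zim1 an adjusted p of 0.0229 (0.718% of 15748 genes, 113 of them, were called). It was 0.0526 without library KDI 4 and 0.0553 without library KDI 5.

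Peg3 in muscle ran from 9.47 through 9.65 to 10.78 in SD, from 9.53 through 10.12 to 10.70 in HFD, from 9.54 through 9.76 to 10.07 in DR and from 9.40 through 10.01 to 10.76 in EX. It ran from 9.42 through 10.16 to 10.53 in KD, from 9.76 through 10.57 to 10.93 in KDI and from 9.86 through 10.26 to 10.44 in KDI_EX. All groups overlapped. KDI exceeded DR by 0.61 ± 0.20 (7 of 7, limma adjusted p = 0.468), and no other Peg3 difference in muscle had an unadjusted p under 0.05. Usp29 means in muscle lay between 1.91 (HFD) and 2.14 (KDI), below the filter in all 49 libraries, and were not tested.

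A wheel added to either diet had no called effect on Zim1 or Peg3 in either tissue, or on Usp29 in nerve. In nerve, EX minus HFD was 0.21 for Zim1 and KDI_EX minus KDI was -0.07, and the difference of those wheel effects was -0.28 ± 0.34 (SE, limma adjusted p = 0.9998). In muscle the corresponding Zim1 values were 0.13, -0.15 and -0.28 ± 0.19. No member was called for this difference in either tissue, and no gene of the 17226 or 15748 tested was (0% in both, with 2.1% and 3.31% at an unadjusted p under 0.05).

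Zim1 and Peg3 moved together from library to library within regimens. After subtraction of regimen means, their values correlated over the 47 nerve libraries with Pearson's r = 0.94 and Spearman's rho = 0.92 (two-sided permutation tests, p = 1e-05 for each, the smallest that 100000 permutations can give, adjusted p = 3.2e-05 and 3.5e-05 over 45 pairs of members). The value of r was 0.93 without the 2 libraries farthest from the Zim1 median. Among 17225 tested genes, Peg3 had the highest correlation with Zim1 in nerve and Zim1 the highest with Peg3. Among the 5 most like Zim1 were also St6galnac5 (r = 0.87), Adcy5 (0.86) and Slc22a3 (0.86), and among the 5 most like Peg3 were also Mycbp2 (0.89), Slc22a3 (0.86) and Synpo2 (0.86). Usp29 ranked 66 for Zim1 (r = 0.79) and 85 for Peg3 (r = 0.76). These ranks count for nothing, because the filter passed Usp29 only through its high groups. Adcy5 encodes an adenylate cyclase and Slc22a3 an organic cation transporter that is itself imprinted in mouse placenta.

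In muscle the Zim1 and Peg3 correlation was lower, with r = 0.72 and rho = 0.71 over 49 libraries (two-sided permutation tests, adjusted p = 7.2e-05 and 0.00012 over 36 pairs), and r = 0.65 without the 2 farthest libraries. Peg3 ranked 14 among the genes most like Zim1, after Plekhg3 and Diaph2 (0.74 each), Asah2, Smarcc2 and Phf8 (0.73 each). Zim1 ranked 70 among those most like Peg3, which were led by Slc5a3 and Ctcflos (0.82 each), Fads3 and Npr3 (0.81 each) and Ttpa (0.79). Slc5a3 encodes a myo-inositol transporter, Npr3 the clearance receptor of natriuretic peptides and Ttpa a tocopherol transfer protein. Different genes thus led the lists of the 2 tissues.

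**Figure D2:**
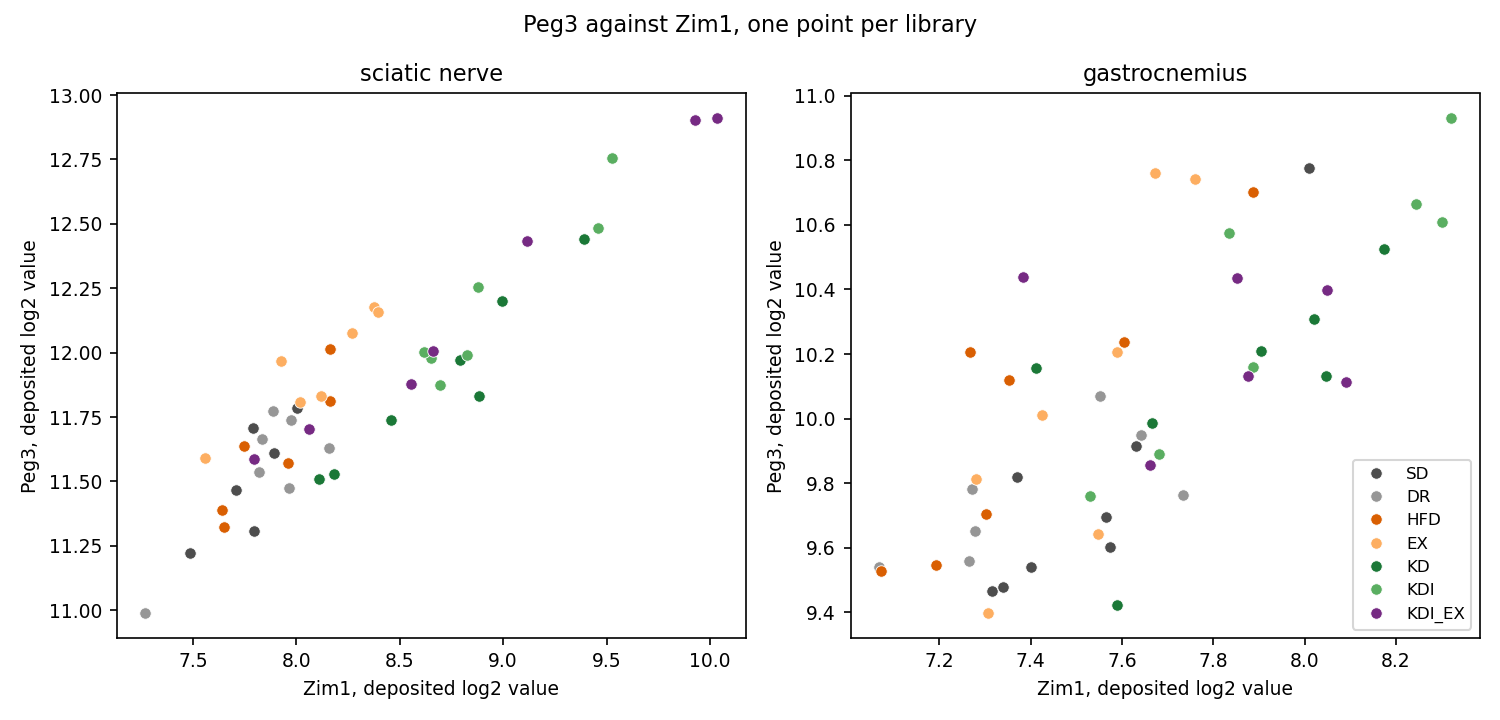
Peg3 (vertical axis) against Zim1 (horizontal axis), deposited log2 values, with a point per library coloured by regimen, in sciatic nerve (left) and gastrocnemius (right). In nerve Peg3 rises with Zim1 (r = 0.92 as plotted and 0.94 after removal of regimen means). There, 19 of the 21 KD, KDI and KDI_EX libraries have a higher Zim1 value relative to Peg3 than every library of the other regimens.

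The step between diets in nerve was larger for Zim1 than for Peg3. The Zim1 value minus the Peg3 value of the same library, a measure chosen after the values were seen and given without a test, was -3.74 ± 0.13 in SD (SD, n = 6), -3.74 ± 0.11 in HFD (n = 6), -3.70 ± 0.16 in DR (n = 7) and -3.85 ± 0.13 in EX (n = 7). It was -3.20 ± 0.16 in KD, -3.24 ± 0.13 in KDI and -3.32 ± 0.33 in KDI_EX (n = 7 each). Of the 21 ketogenic libraries, 19 lay above the highest of the 26 others (-3.47), and the exceptions were KDI_EX 2 and KDI_EX 5, whose Zim1 values (8.06 and 7.80) were the lowest of their group. EX lay with the other high-fat group on this measure although its Peg3 mean (11.945) was above that of KD (11.889). In muscle the difference did not separate the diets, with means from -2.62 in HFD to -2.26 in SD and 2 of 20 ketogenic libraries above the highest other.

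Genes next to the domain had smaller differences, which were not tested against those of Zim1. Within 500000 bases of the Peg3 start, 9 flanking genes were tested in each tissue, namely Zfp28, Zfp78, Zfp583, Zfp667 and Gm3854 on the Zim1 side and Zfp418, Zfp772, Zfp773 and Zfp954 beyond Usp29. KDI minus HFD in these 9 genes ran from -0.08 to 0.15 in nerve (median 0.0) and from -0.04 to 0.12 in muscle (median 0.0), with Zfp28 highest in both. KDI minus DR ran from -0.07 to 0.08 in nerve and from -0.15 to 0.03 in muscle. None had an unadjusted p under 0.05 in limma in the KD vs SD, KDI vs HFD or KDI vs DR comparison of either tissue.

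**Figure D3:**
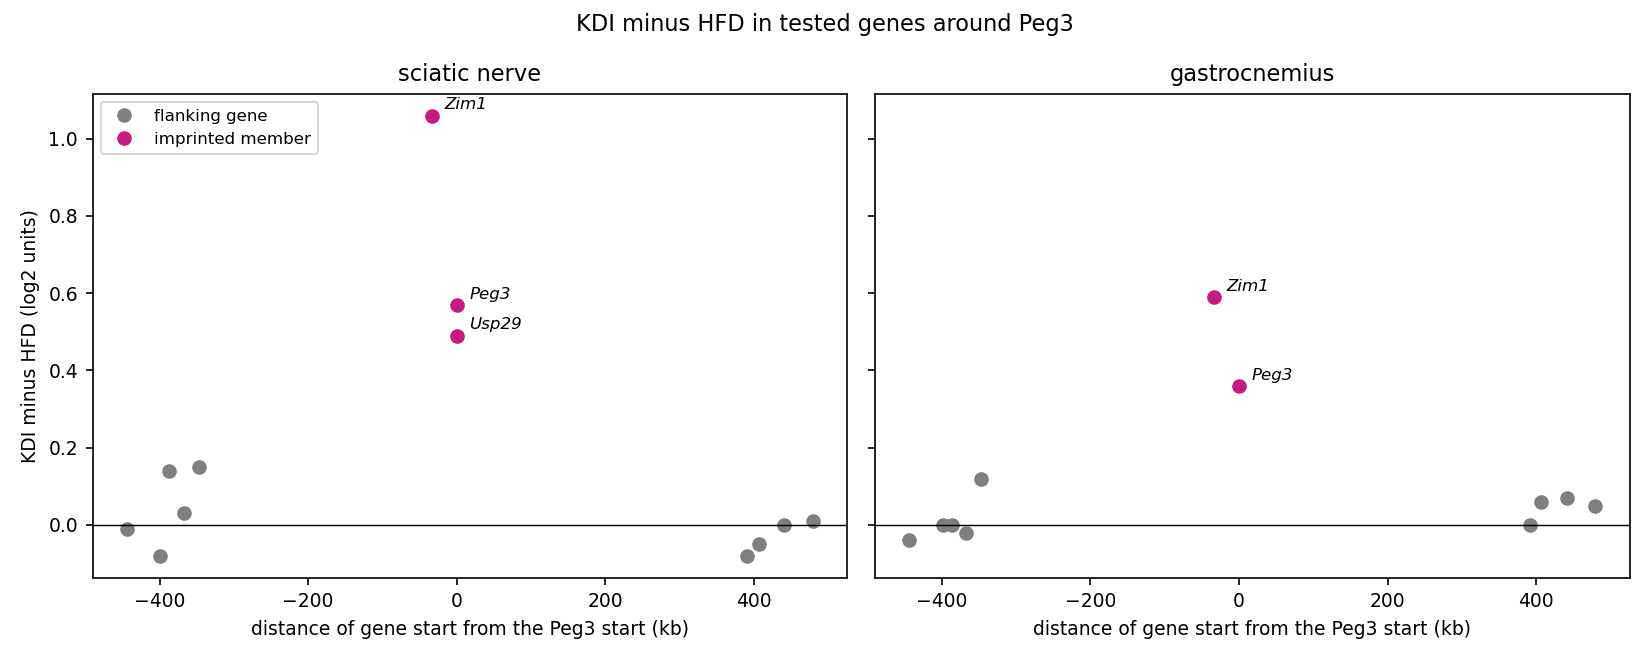
KDI minus HFD (vertical axis, log2 units) of tested genes against the distance of their start from the Peg3 start (horizontal axis, kb), in sciatic nerve (left) and gastrocnemius (right); grey points are flanking genes and pink points the imprinted genes Zim1, Peg3 and Usp29. The flanking genes lie between -0.08 and 0.15 in nerve, and Zim1 lies at 1.06.

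Markers of other cell types varied with Zim1 and Peg3 between nerve libraries. After removal of regimen means, Zim1 correlated with the score of 7 Schwann cell markers at r = -0.76 and rho = -0.66, and with that of 8 adipocyte markers at r = 0.69 and rho = 0.62 (two-sided permutation tests over 47 libraries, adjusted p of at most 0.00019 over 80 pairs). The correlation was r = 0.64 with the score of 6 endothelial markers, r = 0.65 with that of 6 mural cell markers and r = 0.52 with that of 8 muscle fibre markers. For Peg3 these 5 correlations were -0.72, 0.70, 0.56, 0.53 and 0.51. Without the 2 libraries farthest from the Zim1 median, r of Zim1 was -0.65 for Schwann cell markers and 0.61 for adipocyte markers. It was then 0.5 for endothelial, 0.48 for mural cell and 0.51 for muscle fibre markers.

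The score ranges of the regimens overlapped in nerve. The Schwann cell score, all 7 markers measured, ran from -0.18 to 0.14 in SD, -0.11 to 0.20 in HFD, -0.11 to 0.23 in KD, -0.11 to 0.09 in DR, -0.08 to 0.19 in KDI, -0.51 to 0.09 in EX and -0.63 to 0.24 in KDI_EX. The adipocyte score, all 8 markers measured, ran from -0.93 to 0.36 in SD, -1.08 to 0.59 in HFD, -0.84 to 0.47 in KD, -0.21 to 0.99 in DR, -0.46 to 0.89 in KDI, 0.05 to 0.90 in EX and -1.40 to 1.20 in KDI_EX. With the adipocyte and muscle fibre scores as covariates, the 6 Zim1 differences in nerve were 0.87 to 1.13 and all passed the threshold (limma, adjusted p = 0.00017 to 0.00599). Peg3 then passed in KDI vs HFD (0.48), KDI vs DR (0.67) and KDI_EX vs HFD (0.52). The Schwann cell score, which had the largest absolute r with Zim1 in nerve (r = -0.76), was not a covariate. The share of all genes called in this fit is not given here. Whether the adipocyte score itself follows the regimens in nerve was not tested.

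In muscle, Zim1 correlated with the adipocyte score at r = 0.50 and rho = 0.47 and Peg3 at r = 0.68 and rho = 0.67 (two-sided permutation tests over 49 libraries, adjusted p of at most 0.00505 over 81 pairs). The adipocyte score had its lowest means in KD (-0.52) and KDI_EX (-0.65), where Zim1 was high, and higher means in HFD (0.41), KDI (0.36) and EX (0.50). With the adipocyte and Schwann cell scores as covariates, Zim1 passed the threshold in KD vs HFD (0.62), KDI vs HFD (0.595) and KDI_EX vs HFD (0.64), with limma adjusted p-values of 0.0208 to 0.0401, and KDI_EX minus EX was 0.52. Satellite cell markers, 6 of 6 measured in muscle and 0 of 6 tested in nerve, correlated with Zim1 in muscle at r = -0.46 and rho = -0.36. Without the 2 muscle libraries farthest from the Zim1 median, Zim1 had r = 0.4 with the adipocyte score and -0.3 with the satellite cell score.

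The imprinted genes of distal chromosome 7 showed no such order of diets. H19, a maternally expressed long non-coding RNA (chr7:142575529-142578143, minus strand), had nerve means from 11.33 in KDI to 11.69 in HFD and muscle means from 13.32 in KD to 13.60 in KDI_EX. Group standard deviations of H19 reached 0.46 in nerve and 0.53 in muscle, and none of its 24 comparisons had an unadjusted p under 0.05 in limma. Igf2, the paternally expressed insulin-like growth factor made from the same chromosome region (chr7:142650766-142666816, minus strand), had nerve means within 0.17 of each other.

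In muscle, Igf2 ran from 8.72 through 8.85 to 9.10 in KDI, from 8.96 through 9.16 to 9.55 in DR, from 8.97 through 9.14 to 9.29 in KD and from 8.76 through 9.02 to 9.14 in HFD. KDI was 0.30 ± 0.09 (SE) below DR and 0.25 ± 0.09 below KD, with 0 of 7 KDI libraries above the other mean in both, and DR was 0.21 ± 0.09 above HFD (6 of 7). These 3 differences had limma adjusted p-values of 0.424, 0.9999 and 0.92, and the groups overlapped. In KDI muscle the Igf2 mean was thus the lowest of the 7 regimens, where the Zim1 and Peg3 means were the highest. In the annotation Igf2 shares 3596 exonic bases on the same strand with Gm49394 and 98 with the antisense gene Igf2os, which has a row in both.

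Cdkn1c, a maternally expressed inhibitor of cyclin-dependent kinases that restrains cell division (chr7:143458339-143461050, minus strand), had its highest muscle mean in KD. It ran from 9.98 through 10.12 to 10.34 in KD, from 9.42 through 9.69 to 10.26 in HFD and from 9.54 through 9.93 to 10.04 in SD. KD exceeded HFD by 0.36 ± 0.12 (SE, 7 of 7, limma adjusted p = 0.31) and SD by 0.25 ± 0.12 (7 of 7, adjusted p = 0.47). The groups overlapped. Within regimens, Cdkn1c in muscle correlated with the score of 9 fibroblast markers at r = 0.62 and rho = 0.71 (two-sided permutation test, adjusted p = 0.000101 and 0.000116), and that score had its highest means in KDI (0.22), EX (0.15) and KD (0.14). The part of fibroblasts in the Cdkn1c difference was not tested. With the adipocyte and Schwann cell scores as covariates, KD minus HFD was 0.19. In nerve, KDI was 0.21 ± 0.10 below DR (limma adjusted p = 0.865). Cdkn1c shares 625 exonic bases with the antisense gene Gm44732, which has a row in nerve, so reads there cannot be told apart without strand.

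Mest had the widest range of the 10 genes in muscle and did not follow the ketogenic diet. Mest (chr6:30723547-30748465, plus strand) is a paternally expressed member of the hydrolase fold family, known in mice as a gene whose level in white fat goes with fat expansion. It ran from 7.33 through 9.24 to 9.68 in HFD, from 7.53 through 8.30 to 9.97 in KDI and from 7.69 through 8.55 to 9.97 in EX. It ran from 7.02 through 7.59 to 9.08 in SD, from 7.19 through 7.46 to 8.09 in DR, from 7.19 through 7.59 to 8.21 in KD and from 7.14 through 7.56 to 8.58 in KDI_EX. HFD, KDI and EX were thus the high groups and SD, DR, KD and KDI_EX the low groups, and high and low groups overlapped.

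HFD exceeded SD in muscle Mest by 1.11 ± 0.35 (SE, 5 of 7 HFD libraries above the SD mean). KD was 1.18 ± 0.36, DR 1.21 ± 0.36 and KDI_EX 1.11 ± 0.37 below HFD, with every library of those 3 groups below the HFD mean. KDI exceeded KD by 0.90 ± 0.36 (6 of 7) and DR by 0.93 ± 0.36 (6 of 7). KDI_EX was 0.84 ± 0.37 below KDI and 0.89 ± 0.37 below EX (5 of 6 each). These 8 differences had unadjusted p-values of 0.00157 to 0.03 and none passed the adjustment in limma (adjusted p = 0.217 to 0.9999), and the F-test gave an adjusted p of 0.108.

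**Figure D4:**
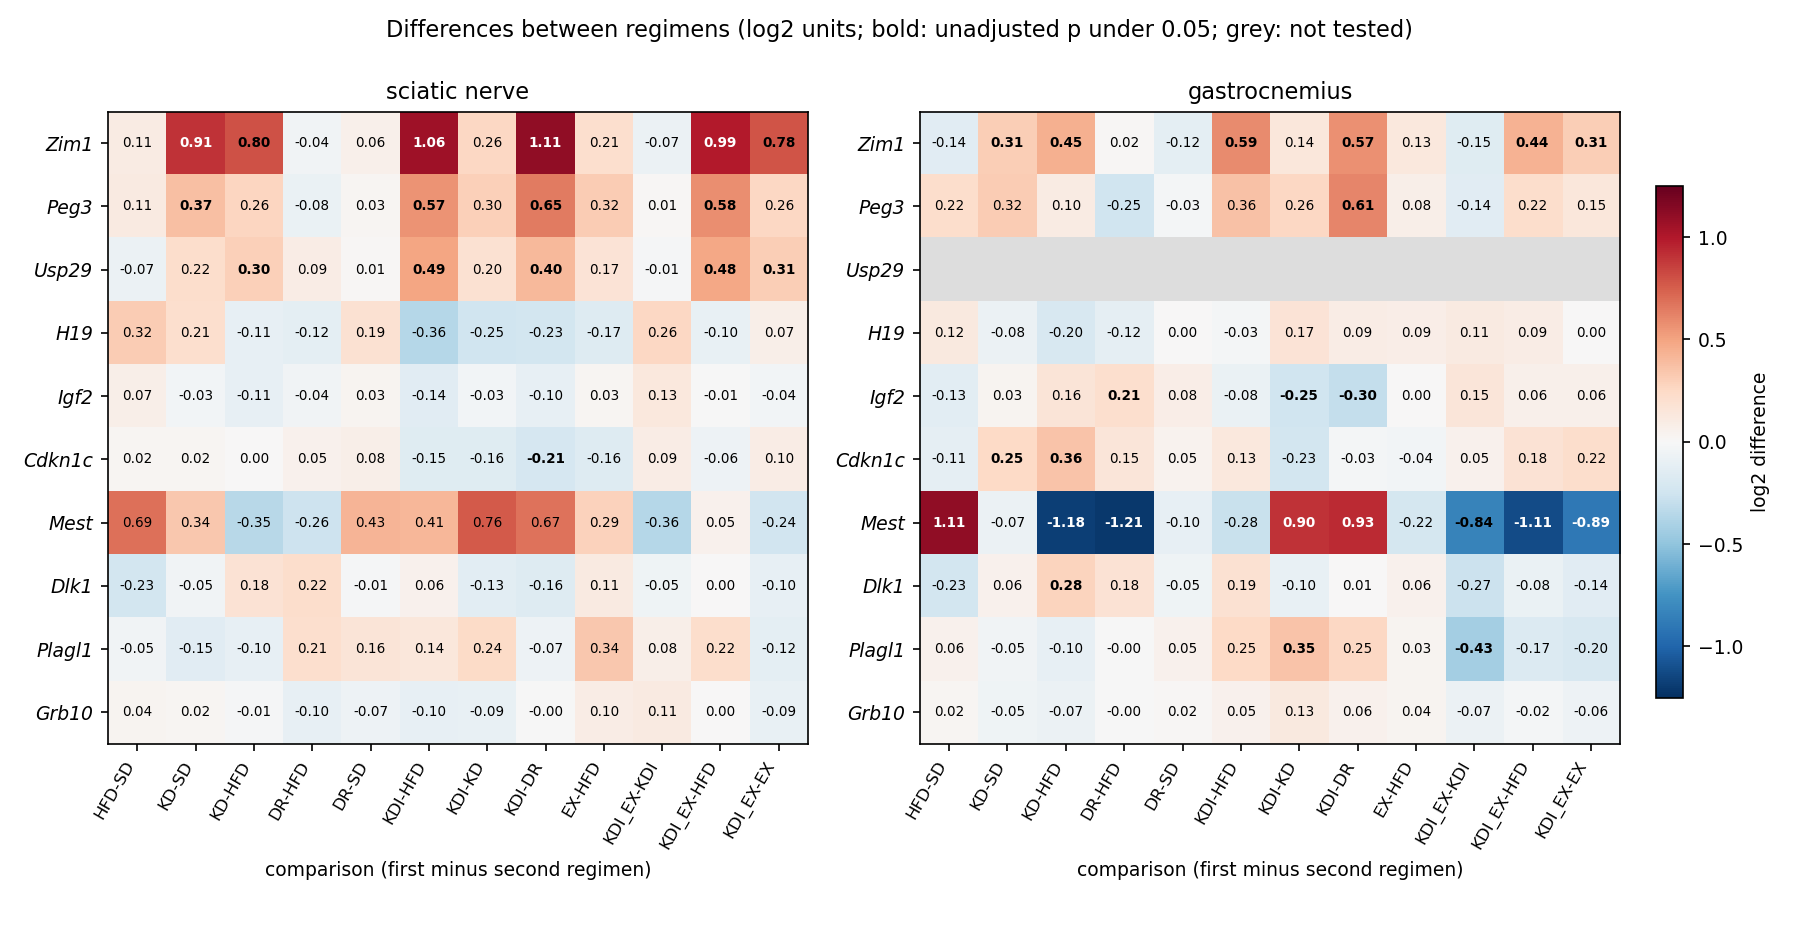
Differences between regimens (log2 units, first minus second regimen, colour and printed value) of the 10 genes (rows) in 12 comparisons (columns), in sciatic nerve (left) and gastrocnemius (right); bold values have an unadjusted p under 0.05 in limma and grey cells were not tested. No value passed the adjustment over all genes, the Zim1 row holds values up to 1.11 in nerve, and the Mest row in muscle runs from -1.21 to 1.11.

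Mest went with adipocyte markers between libraries of both tissues. After removal of regimen means, Mest correlated with the score of 8 adipocyte markers (Adipoq, Plin1, Cidec, Lep, Fabp4, Cfd, Retn and Pck1) at r = 0.87 and rho = 0.88 in nerve and at r = 0.80 and rho = 0.78 in muscle. The two-sided permutation tests gave adjusted p-values of at most 0.000116, and r was 0.84 and 0.79 without the 2 libraries farthest from the Mest median. In muscle the adipocyte score ran from -1.02 to 1.21 in HFD, -0.50 to 1.18 in KDI and -0.20 to 1.34 in EX, and from -0.88 to 1.39 in SD, -0.82 to 0.73 in DR, -1.02 to 0.24 in KD and -1.39 to 0.86 in KDI_EX. With the adipocyte and Schwann cell scores as covariates, KD minus HFD in Mest was -0.41, DR minus HFD -0.78, KDI_EX minus HFD -0.22, HFD minus SD 0.72, KDI minus KD 0.16 and KDI minus DR 0.54. KDI_EX minus KDI and KDI_EX minus EX then turned to 0.03 and 0.07. Lep, among these markers, was itself called by the F-test in muscle (limma, adjusted p = 0.00271). A muscle fit with this score as a covariate, for any gene, may therefore take out part of the regimen differences. The part of fat cells in the differences was not tested. In the annotation 912 exonic bases of Mest overlap Copg2 on the other strand, so reads there cannot be told apart without strand.

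**Figure D5:**
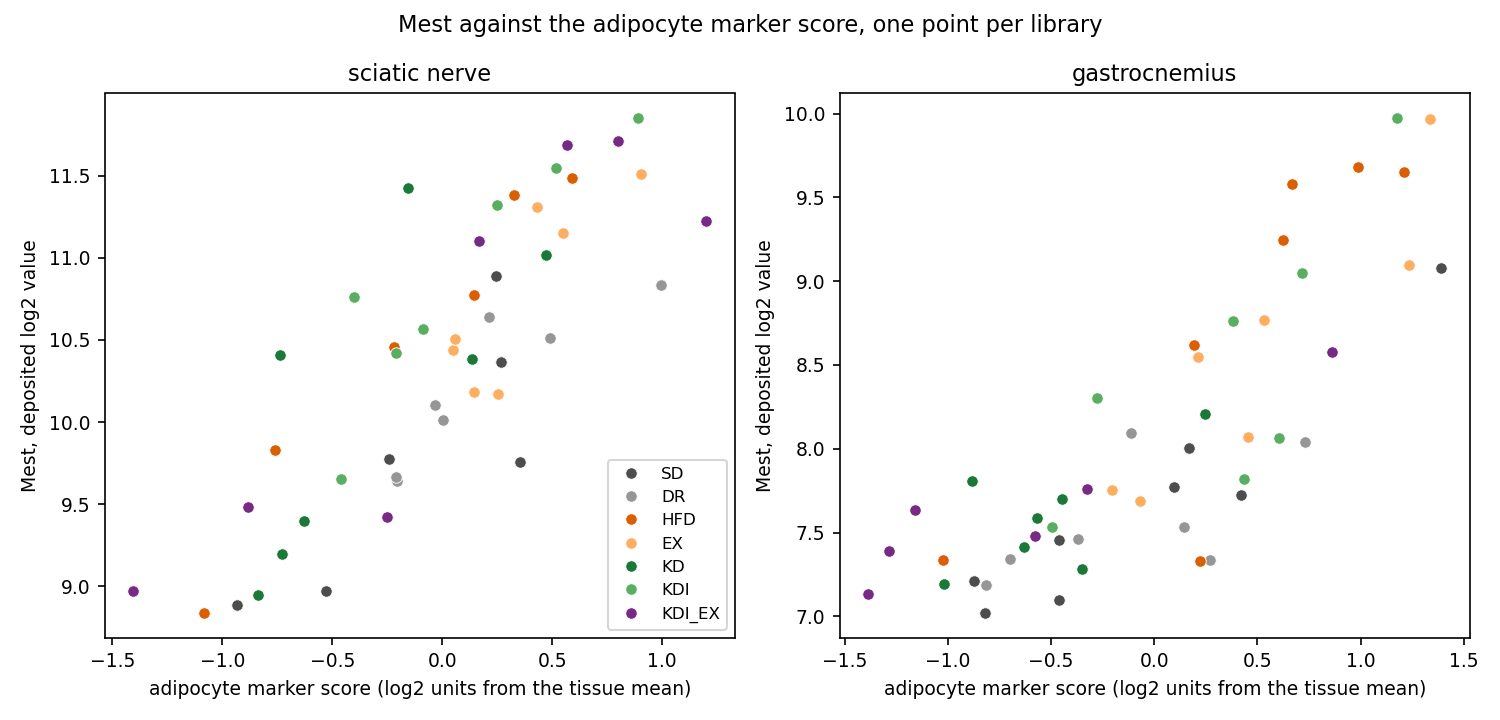
Mest (vertical axis, deposited log2 value) against the adipocyte marker score (horizontal axis, mean of 8 markers in log2 units from the tissue mean), with a point per library coloured by regimen, in sciatic nerve (left) and gastrocnemius (right). Mest is higher in libraries with a higher score (r = 0.87 in nerve and 0.80 in muscle after removal of regimen means).

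In nerve, Mest means lay between 9.77 in SD and 10.88 in KDI with group standard deviations up to 1.17, and no comparison had an unadjusted p under 0.05. Dlk1 (chr12:109452823-109463336, plus strand), a paternally expressed membrane protein with epidermal growth factor repeats that inhibits adipocyte differentiation, was low, with nerve means from 6.33 to 6.57 and muscle means from 4.43 to 4.799. In muscle KD exceeded HFD in Dlk1 by 0.28 ± 0.13 (SE, 6 of 7, limma adjusted p = 0.767). Plagl1 (chr10:13060504-13131694, plus strand), a paternally expressed zinc finger transcription factor known in mice to act on other imprinted genes, was 0.35 ± 0.17 higher in KDI than in KD muscle (6 of 7) and 0.43 ± 0.18 lower in KDI_EX than in KDI muscle (6 of 6 KDI_EX libraries below the KDI mean). Neither passed in limma (adjusted p = 0.9999 and 0.977). Plagl1 in muscle correlated with the adipocyte score at r = 0.77 and rho = 0.76 (permutation test, adjusted p of at most 0.000116), and with the adipocyte and Schwann cell scores as covariates these differences were 0.03 and -0.03. Grb10 (chr11:11930508-12038683, minus strand), an adaptor that binds the insulin and insulin-like growth factor receptors, had means within 0.20 of each other in nerve and within 0.13 in muscle, with no unadjusted p under 0.05.

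Over all 10 genes, 0 of 120 gene and comparison pairs were called in nerve and 0 of 108 in muscle, where single comparisons called 0% to 0.0697% and 0% to 0.318% of all genes. At an unadjusted p under 0.05 there were 16 pairs in nerve, 10 of them in Zim1 and Peg3 and 5 in Usp29, which count for nothing because the filter passed Usp29 only through its high groups, and 23 in muscle, 7 of them in Zim1 and Peg3. Of the nerve comparisons not given above, HFD vs SD, DR vs HFD, DR vs SD, KDI vs KD, EX vs HFD and KDI_EX vs KDI had 18.2%, 7.38%, 9.9%, 2.67%, 7.17% and 4.65% of all genes under that unadjusted p. The same comparisons in muscle had 8.68%, 5.04%, 1.44%, 3.97%, 2.02% and 4.72%, with 0.0191% called in HFD vs SD, 0.0254% in DR vs HFD and 0% in the other 4. The comparisons share regimens, so their values are not independent. For the 7 genes outside the Peg3 domain, the median difference over the 12 comparisons ranged from -0.10 to 0.10 in nerve and from -0.07 to 0.13 in muscle, against -0.01 to 0.01 over all genes. A median of 7 genes varies more than a median over all genes, so the wider range is not read as a shift of the members.

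The correlations among all members were set beside those of all tested genes. After removal of regimen means, 28 of 45 pairs in nerve passed the permutation test (adjusted p under 0.05 over the pairs of a tissue), all with positive r, and the median r of all 45 was 0.46. The 28 include the pairs of Usp29 with Zim1, Peg3, H19, Mest, Plagl1 and Grb10. These pairs count for nothing, because the filter passed Usp29 only through its high groups. In muscle 10 of 36 pairs passed, 7 positive and 3 negative, with a median r of 0.02. Among all pairs of tested genes, 15.3% in nerve had an r of at least 0.35, the smallest of the called member pairs, and 15.0% a negative r of at least that size. In muscle 28.2% of all gene pairs had an absolute r of at least 0.38, the smallest called there, against 27.8% of the member pairs, so the muscle count is no result about the members. Most members in nerve also went with the marker scores given above, and the part of these cell types in the correlations was not tested. Plagl1 in nerve correlated with Peg3 (r = 0.81, rho = 0.76), Mest (0.81, 0.83) and Grb10 (0.80, 0.78), and in muscle with Mest (0.73, 0.73) and Peg3 (0.64, 0.58). Peg3 and Mest correlated at r = 0.63 in nerve and 0.74 in muscle. The 3 negative pairs in muscle were H19 and Dlk1 (r = -0.63, rho = -0.62), H19 and Cdkn1c (-0.46, -0.43) and Dlk1 and Grb10 (-0.38, -0.45). In nerve H19 and Cdkn1c correlated at r = 0.55 and rho = 0.54. H19 and Igf2, which share regulatory sequence in the mouse, correlated at r = 0.50 and rho = 0.51 in nerve and at r = 0.15 and rho = 0.20 in muscle, where the pair did not pass (permutation test, adjusted p = 0.573).

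Other imprinted genes were measured to show what the class did. Of 56 further imprinted genes listed, 45 were tested in nerve and 44 in muscle, and 0 were called by the F-test in limma in either tissue. At an unadjusted F-test p under 0.05 there were 7 of 45 in nerve and 12 of 44 in muscle, where 10.6% and 8.38% of all genes were under it. Their median difference in KDI vs HFD was 0.03 in nerve and -0.01 in muscle, against 0.00 over all genes in both. The 4 with the smallest F-test p in nerve were Rian, Peg13, Peg10 and Ndn (adjusted p = 0.361, 0.371, 0.393 and 0.414), and in muscle Asb4, Slc38a4, Copg2 and Klf14 (0.14, 0.146, 0.241 and 0.257).

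Rian, a maternally expressed non-coding RNA of the Dlk1 domain, had nerve means of 10.71 ± 0.18 in SD (SD, n = 6), 10.37 ± 0.12 in HFD (n = 6), 10.66 ± 0.29 in KD (n = 7) and 10.76 ± 0.30 in EX (n = 7). Peg10, a paternally expressed gene derived from a retrotransposon, had its nerve maximum in KDI (8.65 ± 0.33, n = 7) and its minimum in DR (8.21 ± 0.18, n = 7). In muscle, Slc38a4, a paternally expressed amino acid transporter, ran from a mean of 11.94 ± 0.25 in EX (n = 7) to 12.54 ± 0.27 in SD (n = 8). Klf14, a maternally expressed transcription factor, had its highest muscle means in EX (3.14 ± 0.31) and HFD (3.13 ± 0.29) and its lowest in KD (2.76 ± 0.06, n = 7 each). Copg2, which overlaps Mest, had its lowest muscle mean in KD (9.37 ± 0.07, n = 7) and means of 9.46 to 9.59 in the other regimens. The order of Zim1, with KD, KDI and KDI_EX above the 4 other regimens, was seen in none of these 8 genes, but Peg13 in nerve came near it. The Peg13 means were 12.175 in KDI, 12.153 in KDI_EX, 12.093 in HFD, 12.085 in KD, 12.05 in DR, 12.001 in EX and 11.915 in SD.

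Genes of insulin-like growth factor signalling gave no call either. Of 15 listed genes, 15 were tested in nerve and 13 in muscle, and 0 were called by the F-test in limma. At an unadjusted F-test p under 0.05 there were 0 of 15 in nerve and 4 of 13 in muscle. Over all genes, 10.6% in nerve and 8.38% in muscle were under it. The genes named next were chosen after their values were seen. Igf1r, the receptor shared by both insulin-like growth factors, was 0.31 ± 0.08 (SE) higher in KDI_EX than in KDI muscle and 0.30 ± 0.08 higher in KDI_EX than in HFD muscle (limma adjusted p = 0.977 and 0.175). Igf1, the ligand made by liver and muscle, was 0.46 ± 0.17 higher in KD than in SD muscle, and Irs2, an insulin receptor substrate, was 0.43 ± 0.13 lower there (adjusted p = 0.362 and 0.218). Igfbp3, a binding protein that holds the growth factors in serum, was 0.33 ± 0.11 lower in KDI_EX than in HFD muscle (adjusted p = 0.378).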

How the data were processed

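Messenger RNA was sequenced in 47 sciatic nerve (SCN) and 49 gastrocnemius (GASTROC) libraries. Per the labels' protocols, TRIzol was used to take RNA, and a NEBNext Ultra kit, not stated to mark strand, to make libraries that were read in pairs on a NovaSeq X Plus. STAR 2.7.8a, RSEM 1.3.3, DESeq2, cutadapt 2.3, MultiQC 1.7, FastQC 0.11.8 and the build GRCm38 are listed, with no role or order, per the submitters' processing notes. The authors deposited log2 values, 1 per gene symbol and library; their transform is not given in the sources used here, and depth is unknown. If the transform shrinks low genes, differences of low genes such as Usp29 are understated.

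A gene was tested where 6 or more libraries reached log2 of 10. For each tissue, limma 3.58.1 (R 4.3.3, statmod 1.5.0) with a trended, robust prior fitted the 7 regimens together. It gave 12 comparisons, the difference of wheel effects and an F-test, two-sided, adjusted by Benjamini-Hochberg over all genes and called under 0.05. The procedure was tested on simulated data. Marker scores are means of markers centred on the tissue mean. Correlations used values minus regimen means and 100000 permutations. Differences of members with an unadjusted p under 0.05 are given with their values, the 4 other imprinted genes with the smallest F-test p per tissue and the 5 genes most like Zim1 and Peg3 are named, except for an item that is not reported here, and other values are given as ranges.

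Replicates are separate libraries numbered in accession order. The labels do not name the mouse behind a library, so a p-value reflects variation between libraries, which may be technical. The labels give no batch. No pair of libraries was a copy (highest r between libraries 0.9993 in nerve and 0.999 in muscle). The members and lists were chosen with earlier results of these data known. Alternatives were filters, scalings, library weights, the variance prior, fits of the 2 groups compared, marker covariates and leaving out libraries.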

Additional observations from a re-analysis of the deposited data

Results flagged for a closer look

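Of 140 groups of 4 to 10 libraries examined, 8 held a library far from the rest of its group by Dixon's criterion at the 95% level. Chance gives about 1 such group in 20. In nerve, library DR 2 was the lowest of 7 for Zim1 (7.27, next 7.82), Peg3 (10.99, next 11.48) and Grb10 (10.44, next 10.69). Also in nerve, KDI 5 was the highest of 7 for Dlk1 (6.58, next 6.43) and SD 5 the highest of 6 for Grb10 (11.12, next 10.73). In muscle, library SD 1 was the highest of 8 for Zim1 (8.01, next 7.63) and Peg3 (10.78, next 9.91), and DR 7 was the highest of 7 for Usp29 (2.33, next 2.01), below the level at which Usp29 was tested.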

How the results depend on the processing

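No paired analysis was possible because replicate numbers here only follow accession order. Over 39 differences named with their values, 2240 refitted values kept the main direction except 2 in Mest of muscle, where marker covariates turned KDI_EX minus KDI to 0.027 and KDI_EX minus EX to 0.071, and 32 passed the threshold where the main value did not. The main fit called 0 gene and comparison pairs in each tissue. Library quality weights called 3 in nerve and 6 in muscle, marker scores as covariates 11 and 3, and leaving out KDI_EX 6 and KDI_EX 7 in nerve, chosen after seeing the data, 2. Leaving out each library in turn gave 0 to 2 calls in both tissues. Usp29 in nerve is in these counts, with KDI vs HFD and KDI_EX vs HFD under marker covariates and KDI_EX vs HFD without KDI_EX 2. Its passes, also those among the 32, count for nothing, because the filter passed Usp29 only through its high groups. The shares of all genes called in the other fits are not given here, so their counts are not read as results about the members.

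The F-test called 1 member, Zim1, in each tissue. In nerve it called 2 with libraries centred on their medians, where Peg3 joined, 3 with quality weights and 3 with marker covariates, and 1 to 3 with each library left out. Peg3 and Usp29 joined Zim1 with quality weights, with marker covariates and without KDI_EX 2, and the Usp29 calls count for nothing, as above. In muscle the F-test called 3 with quality weights, 2 with marker covariates, and 0 to 2 with each library left out. For the F-test, too, the shares of all genes called in the alternatives are not given, and these counts are read no further. Zim1 kept its F-test call in 56 of 56 alternatives in nerve and in 55 of 57 in muscle. The difference of wheel effects gave 0 calls with every library left out in turn. The cause of these changes was not tested. The depth behind the values is unknown, so its effect on low genes such as Usp29 was not measured.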
